A study of Mus musculus with 28 samples.

Results

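The 37 collagen genes measured here form the connective tissue scaffold of skeletal muscle and its junctions with tendon, nerve and bone. They were chosen by gene symbol as a family of 9 fibrillar, 8 basement membrane and 20 minor collagens, and all 37 were found by Ensembl gene identifier among the 55416 genes counted in one cohort and the 55359 counted in the other. RNA-seq counts came from the tibialis anterior (TA) muscle of 28 mice, 4 in each of 7 groups, at 8 weeks of age. In the Dnm2 cohort, WT and Dnm2 S619L/+ mice received either placebo or a diet supplemented with tamoxifen. In the Bin1 cohort, WT mice (numbered 5 to 8) and Bin1 mck-/- mice received placebo, and further Bin1 mck-/- mice received tamoxifen. Dnm2 S619L/+ mice carry a heterozygous point mutation knocked into Dnm2, which encodes the membrane-severing GTPase dynamin 2. Bin1 mck-/- mice lack Bin1, which encodes the membrane-curving protein amphiphysin 2, in muscle only, so fibroblasts and vessels of these mice keep the gene. Both are models of centronuclear myopathy. There was no treated WT group in the Bin1 cohort, and the mice given placebo are called untreated below.

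Collagens are extracellular proteins whose alpha chains wind around each other into a helix, and each chain has its own gene. Fibrillar collagens (types I, III, V, XI and XXVII) assemble into the cables of tendon, bone and the sheaths around muscle fibres, and in muscle they are made mainly by fibroblasts. Basement membrane collagens (type IV, with types XV and XVIII at its edge) form the sheet that coats each muscle fibre, capillary and Schwann cell. The others include the beaded filaments of type VI, the fibril-associated collagens that decorate cables, and transmembrane collagens such as type XIII at the neuromuscular junction.

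The deposited values were raw counts per gene, which summed to between 15586333 and 109710886 per mouse in the Dnm2 cohort and between 24671835 and 35136327 in the Bin1 cohort. Levels below are CPM, a gene's count scaled to a common library total, on library sizes scaled by the TMM method. Differences are log2 fold changes ± standard error (SE) from edgeR's quasi-likelihood test, fitted over all 15439 or 14841 genes that passed the count filter in the cohort, and a gene was called at a Benjamini-Hochberg adjusted p under 0.05. Bin1 itself was at 539.6 ± 15.6 CPM (SD, n = 4) in the WT mice of the Bin1 cohort and at 56.1 ± 5.10 CPM in Bin1 mck-/- mice, a log2 fold change of -3.26 ± 0.13 (edgeR adjusted p = 7.1e-10). Dnm2, whose mutation changes its sequence and not its count, had 67.5 ± 4.64 CPM in Dnm2 S619L/+ and 63.0 ± 1.44 CPM in WT mice. The 10 myofiber genes together summed to between 86861 and 183932 CPM over the 28 mice, so the defining genes of the labelled tissue were present in all of them. Treated mice did not form uniform groups. In the Dnm2 cohort, treated Dnm2 S619L/+ mouse 4 stood apart from mice 1 to 3, and in the Bin1 cohort treated Bin1 mck-/- mouse 2 stood apart from mice 1, 3 and 4, both in the collagens and in genes of bone cells. Ibsp, which encodes a bone matrix sialoprotein, was at 475, 652, 172 and 200.3 CPM in treated WT mice 1 to 4 and at 87.0, 222, 294 and 2.41 CPM in treated Dnm2 S619L/+ mice 1 to 4. It was at 0.0871, 186 and 0 CPM in treated Bin1 mck-/- mice 1 to 3, at 0 in mouse 4, and at 0.820 CPM or less in each of the 16 untreated mice. Values without treated Dnm2 S619L/+ mouse 4 therefore stand beside the results for treated Dnm2 S619L/+ mice, and values without treated Bin1 mck-/- mouse 2 beside the counts and Col1a1 in treated Bin1 mck-/- mice. Both mice were picked by the same collagen levels that these fits test. Adjusted p-values and counts without them are therefore descriptive and are not independent tests. The cohorts differ in model, RNA input and fragmentation time together, so no comparison was made across them.

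Promoter sequence is shown for the genes around which the results turn. These are Col1a2 and Col3a1 as abundant fibrillar genes, Col8a2 as one of the genes with the widest range, and Col4a5. With all mice of a cohort fitted, Col4a5 was the one collagen called in both models. RefSeq start sites (build GRCm38.p6) were found for 31 of the 37 genes, and the bases before each start were searched on both strands for CCAAT, for the Sp1 box GGGCGG, for TATAAA, for the AP-1 site TGACTCA and for the palindromic estrogen response element. Capitals below mark every match, and each sequence reads 5′ to 3′ on the strand of its gene, ending at the base before the start. The windows lie at chr6:4505368-4505617 (Col1a2, plus strand), chr1:45311288-45311537 (Col3a1, plus strand), chr4:126286544-126286793 (Col8a2, plus strand) and chrX:141475169-141475418 (Col4a5, plus strand).
Col1a2: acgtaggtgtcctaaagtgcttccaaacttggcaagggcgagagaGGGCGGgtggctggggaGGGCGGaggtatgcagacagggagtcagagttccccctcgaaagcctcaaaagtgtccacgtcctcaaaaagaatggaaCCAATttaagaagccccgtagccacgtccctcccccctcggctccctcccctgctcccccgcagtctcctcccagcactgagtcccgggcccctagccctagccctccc
Col3a1: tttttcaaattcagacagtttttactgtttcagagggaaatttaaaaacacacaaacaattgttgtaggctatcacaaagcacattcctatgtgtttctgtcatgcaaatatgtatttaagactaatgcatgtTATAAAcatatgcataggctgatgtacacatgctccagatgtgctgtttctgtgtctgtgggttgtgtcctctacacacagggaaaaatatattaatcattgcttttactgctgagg
Col8a2: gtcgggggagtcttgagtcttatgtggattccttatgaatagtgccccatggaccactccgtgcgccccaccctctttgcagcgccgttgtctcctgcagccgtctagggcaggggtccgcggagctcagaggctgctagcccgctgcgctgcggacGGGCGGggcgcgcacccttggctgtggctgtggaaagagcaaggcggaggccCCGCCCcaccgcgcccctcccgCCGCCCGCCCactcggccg
Col4a5: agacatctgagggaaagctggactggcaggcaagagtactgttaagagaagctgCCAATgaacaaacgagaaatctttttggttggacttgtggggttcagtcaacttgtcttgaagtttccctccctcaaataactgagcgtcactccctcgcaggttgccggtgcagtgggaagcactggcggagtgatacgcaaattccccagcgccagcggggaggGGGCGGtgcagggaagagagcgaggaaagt
The Sp1 box was present before the start of 20 of the 31 genes, against 32.7% of all 32851 mouse windows of this length. CCAAT was present in 12 of 31 (33.8% of all windows), TATAAA in 4 of 31 (12.4%) and TGACTCA in 1 of 31, Col6a1 (4.46%). The palindromic estrogen response element was in 0 of 31 (0.0639% of all windows). These are matches of letters in a short window and say nothing about binding. Col4a1 (minus strand) and Col4a2 (plus strand) lie head to head with annotated starts 21 bases apart, and their 5′ ends overlap at chr8:11312805-11312826. The stretch from one start to the other therefore lies inside both annotated transcripts. It is given on the plus strand with its Sp1 box in capitals, because the levels of the 2 genes are compared below.
Col4a2-Col4a1: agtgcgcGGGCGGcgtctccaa
Col4a5 and Col4a6 are divergent without such an overlap, with starts 1343 bases apart on the X chromosome.

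In WT muscle the basement membrane and the major fibrillar chains were the most abundant. Per kilobase of exon, Col4a1 came first in both cohorts, at 61.3 ± 23.1 CPM per kb (SD, n = 4) in the Dnm2 cohort and 64.2 ± 14.8 CPM per kb in the Bin1 cohort. Col3a1, Col4a2, Col1a1, Col6a1 and Col1a2 filled the next 5 places in both cohorts, at 24.5 to 50.6 and 25.3 to 53.3 CPM per kb, and neighbours among these 6 genes differed by less than the larger of their SDs in the Dnm2 cohort. Near the other end of the order, the type XI chain Col11a1 was at 0.163 ± 0.210, the fibril-associated Col12a1 at 0.295 ± 0.299 and the network-forming Col8a2 at 0.193 ± 0.214 CPM per kb in the Dnm2 cohort. The lowest gene in both cohorts was the type VI chain Col6a4, at most 0.158 CPM per mouse, which was too low to be tested, as were Col4a6 in the Dnm2 cohort and Col19a1 and Col25a1 in the Bin1 cohort. Type VI chains Col6a1 and Col6a2 kept a ratio per kilobase of 1.79 to 2.33 across all 16 mice of the Dnm2 cohort, and Col4a1 and Col4a2 one of 1.03 to 1.40.

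Tamoxifen was accompanied by a much larger collagen output in the Dnm2 cohort. The 37 genes held 0.285, 0.185, 0.143 and 0.265% of all gene counts in WT mice 1 to 4 and 2.62, 3.70, 1.73 and 2.15% in treated WT mice 1 to 4. Dnm2 S619L/+ mice had 0.417, 0.365, 0.352 and 0.335% untreated and 1.44, 2.45, 2.93 and 0.381% treated. The myofiber sum moved with this in WT mice, from 127147 to 153709 CPM untreated to 97411 to 111326 CPM treated without overlap, with 1 of its 10 genes called, as lower, while Dnm2 S619L/+ mice had 98316 to 138012 CPM untreated and 86861 to 140121 CPM treated. Its part in the collagen share was not tested. Mouse 4 of the treated Dnm2 S619L/+ mice fell within the range of collagen shares of the untreated Dnm2 S619L/+ mice, and the other treated mice lay above every untreated mouse. The share in the Bin1 cohort was 0.306, 0.236, 0.242 and 0.213% in WT mice 5 to 8, 0.338, 0.575, 0.389 and 0.978% in Bin1 mck-/- mice 1 to 4, and 0.338, 1.25, 0.224 and 0.0788% in treated Bin1 mck-/- mice 1 to 4. All 4 untreated Bin1 mck-/- mice lay above the WT mice, and the treated mice ranged from below the lowest WT mouse to above every other mouse of the cohort. Fibrillar genes made up 44.4 to 50.8% of the collagen counts in WT mice of the Dnm2 cohort, 58.8 to 65.2% in Dnm2 S619L/+ mice, 79.8 to 82.7% in treated WT mice and 78.1, 80.1, 82.5 and 64.3% in treated Dnm2 S619L/+ mice 1 to 4. In the Bin1 cohort they made up 43.1 to 49.9% in WT, 55.3 to 65.8% in Bin1 mck-/- and 58.9, 78.8, 57.9 and 45.7% in treated Bin1 mck-/- mice 1 to 4.

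**Figure D1:**
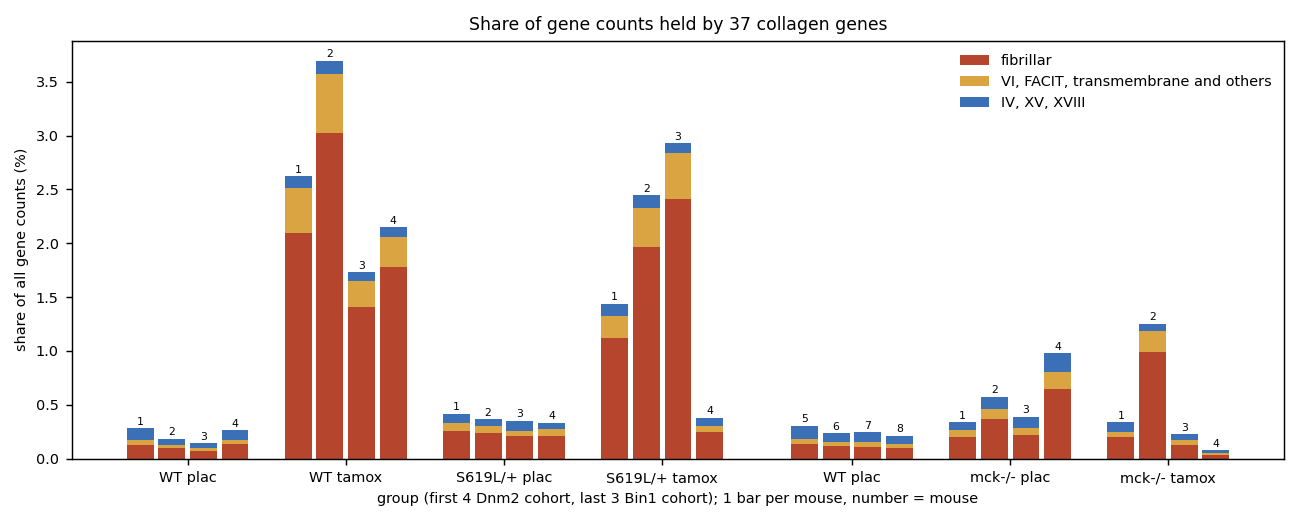
Bars give the share of all gene counts (%, linear axis from 0) held by the 37 collagen genes in each of the 28 mice, split into fibrillar genes (red), type VI, fibril-associated, transmembrane and other genes (yellow) and types IV, XV and XVIII (blue), with the mouse number above each bar. Treated WT mice reach 1.73 to 3.70%, while treated Dnm2 S619L/+ mouse 4 (0.381%) and treated Bin1 mck-/- mice 1, 3 and 4 (0.0788 to 0.338%) stay low, and the blue part lies between 0.0243 and 0.170% in every mouse.

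Fibrillar genes carried most of this difference. Of 9 fibrillar genes, 8 rose in treated against untreated WT mice, 7 rose in treated against untreated Dnm2 S619L/+ mice, and 0 fell in either comparison. Over all 37 genes, 22 rose and 3 fell of the 35 tested in WT mice, where 15.8% of all tested genes were called higher and 11.9% lower. In Dnm2 S619L/+ mice 14 rose and 1 fell, where 5.22% of all tested genes were called higher and 3.05% lower. The treated and untreated mice did not overlap for 21 collagens that were higher and 1 lower in WT (17.6% and 13.8% of all tested genes) and for 7 higher and 1 lower in Dnm2 S619L/+ mice (4.02% and 6.36%). DESeq2 called 16 higher and 1 lower in Dnm2 S619L/+ mice, where it called 6.61% and 4.24% of its tested genes. Without treated mouse 4, edgeR called 17 higher and 1 lower in Dnm2 S619L/+ mice, where 10.2% and 6.18% of all tested genes were called, the 3 added being Col6a1, Col6a2 and Col18a1. The median log2 fold change of the 35 tested was 1.79 in WT and 0.73 in Dnm2 S619L/+ mice, beside -0.04 and -0.03 over all genes. In these whole-muscle samples, a change in the number of cells of a type and a change in RNA per cell cannot be told apart. Genes of bone cells moved with these levels, with sums of 299 to 933 CPM in treated against 30.2 to 57.6 CPM in untreated WT mice, and their part in the collagen levels was not tested.

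Col1a1, the main chain of type I collagen, was at 242, 171, 127 and 419 CPM in WT mice 1 to 4 and at 4558, 7666, 3582 and 5541 CPM in treated WT mice 1 to 4. The lowest treated WT mouse was far above the highest untreated one, and the log2 fold change was 4.48 ± 0.61 (edgeR adjusted p = 0.000291). Dnm2 S619L/+ mice had it at 565, 554, 523 and 413 CPM untreated and at 2729.5, 4582, 6196 and 481 CPM treated. Treated mouse 4 lay among the untreated mice, so the groups overlapped, with a log2 fold change of 2.77 ± 0.56 (edgeR adjusted p = 0.01). Without that mouse the log2 fold change was 3.13 ± 0.38. Its partner chain Col1a2 was at 299.6, 266, 215 and 438 CPM in WT and 6302, 9265, 4507 and 5931 CPM in treated WT mice, and at 671, 673, 611 and 559.7 CPM in Dnm2 S619L/+ and 3247, 5454, 6979 and 609.8 CPM in treated Dnm2 S619L/+ mice. The mice separated as they did for Col1a1, with log2 fold changes for Col1a2 of 4.41 ± 0.54 in WT and 2.70 ± 0.50 in Dnm2 S619L/+ mice (3.06 ± 0.28 without mouse 4). Per kilobase of exon, the ratio of Col1a1 to Col1a2 was between 1.11 and 1.81 in all 16 mice of the cohort, while that of Col1a1 to Col4a1 went from 0.416 to 0.894 in WT mice to between 9.32 and 15.1 in treated WT mice.

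Col3a1, the chain of the type III fibrils in the finer sheaths of muscle, was at 601, 544, 383 and 457 CPM in WT mice and 6364, 8537, 4427 and 4516 CPM in treated WT mice. Dnm2 S619L/+ mice had it at 831, 996, 709 and 726 CPM untreated and 3080.2, 5149, 6074 and 1138 CPM treated. Here all 4 treated mice lay above all 4 untreated mice of their genotype, with log2 fold changes of 3.59 ± 0.41 in WT and 2.24 ± 0.38 in Dnm2 S619L/+ mice (edgeR adjusted p = 0.000177 and 0.00436). Without mouse 4 the latter was 2.55 ± 0.26. Col11a1, a type XI chain best known from cartilage, where it sets fibril width, rose from 1.29, 0.198, 0.790 and 6.03 CPM to 486, 499, 234 and 214 CPM in WT mice, a log2 fold change of 7.31 ± 1.03 (edgeR adjusted p = 0.000345). In Dnm2 S619L/+ mice it went from 9.89, 6.67, 4.48 and 6.48 CPM to 122, 245, 367 and 11.9 CPM, a log2 fold change of 4.74 ± 0.91, or 5.13 ± 0.74 without mouse 4. The other fibrillar genes called in WT mice, Col5a1, Col5a2, Col5a3 and Col27a1, had log2 fold changes of 1.09 to 3.84. Col11a2 did not pass the test in either genotype (1.18 ± 0.52 and 0.13 ± 0.52).

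**Figure D2:**
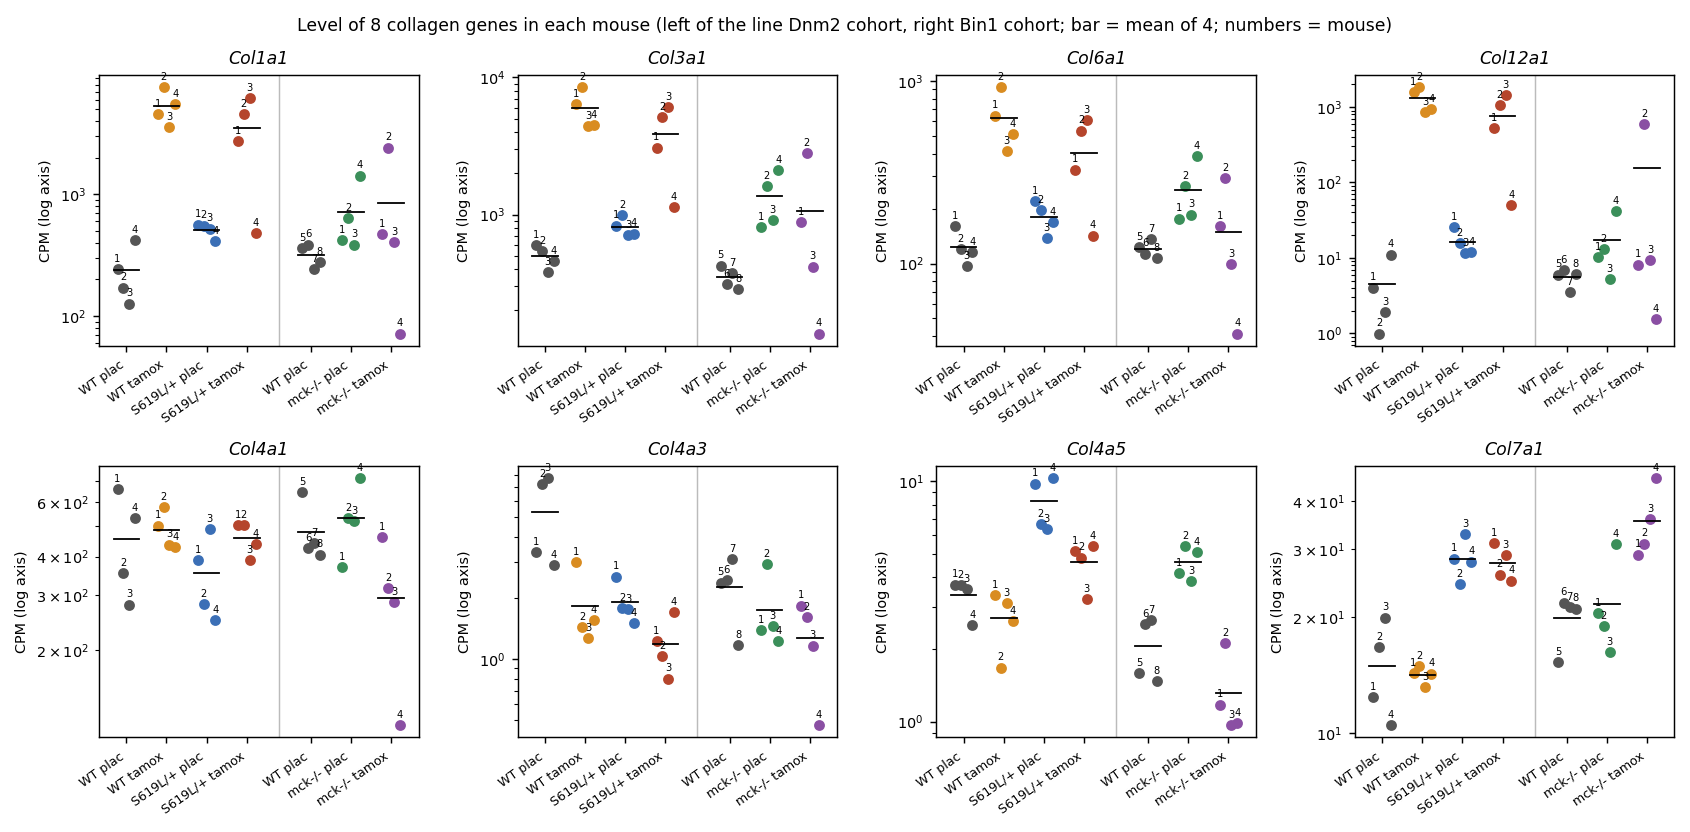
Each point is the level of a collagen gene in 1 mouse (CPM, log axis), with bars at the mean of the 4 mice of a group and mouse numbers beside the points, for the Dnm2 cohort left of the grey line and the Bin1 cohort right of it. Col1a1, Col3a1, Col6a1 and Col12a1 are high in treated WT mice and in treated Dnm2 S619L/+ mice 1 to 3, Col4a1 stays between 249.9 and 661 CPM in the Dnm2 cohort, and Col4a5 is highest in the untreated mice of both models.

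Fibril-associated and network-forming collagens held the widest ranges. Col12a1, which decorates fibrils of tendon and fascia, was at 4.03, 0.990, 1.90 and 11.0 CPM in WT and 1595, 1853, 864 and 948 CPM in treated WT mice, the largest log2 fold change of any member at 8.12 ± 1.001 (edgeR adjusted p = 0.000233). Dnm2 S619L/+ mice had it at 25.8, 15.8, 11.6 and 11.8 CPM untreated and 529.6, 1063, 1439 and 50.4 CPM treated, and even treated mouse 4 lay above every untreated mouse, with a log2 fold change of 5.55 ± 0.89 (edgeR adjusted p = 0.00339), or 5.94 ± 0.68 without that mouse. Col8a2, a short-chain collagen of sheet-like networks, was at 0.658, 0.141, 0.395 and 2.28 CPM in WT and 76.2, 104, 40.9 and 43.5 CPM in treated WT mice, and at 2.30, 2.69, 3.17 and 2.53 CPM in Dnm2 S619L/+ and 56.3, 105, 88.9 and 4.41 CPM in treated Dnm2 S619L/+ mice. The treated mice again lay above the untreated mice in each genotype, with log2 fold changes of 6.06 ± 0.85 and 4.56 ± 0.78 (4.95 ± 0.54 without mouse 4). The fibril-associated Col14a1 and Col16a1, the transmembrane Col13a1 and the network-forming Col8a1 also rose in both genotypes, by 1.79 to 5.46 in WT and 1.07 to 4.15 in Dnm2 S619L/+ mice on the log2 scale (1.19 to 4.54 without mouse 4). Col22a1, a collagen of the muscle-tendon junction, rose in WT mice (2.44 ± 0.52, edgeR adjusted p = 0.00363) and did not pass the test in Dnm2 S619L/+ mice (0.26 ± 0.50). Col20a1, a fibril-associated gene, fell by 0.80 ± 0.26 on the log2 scale in WT mice (edgeR adjusted p = 0.0315), from 6.48, 4.72, 7.03 and 7.30 CPM to 5.08, 3.33, 3.48 and 2.55 CPM, with overlapping groups, and 16 of 22 other fits called it. The transmembrane Col23a1 and the type XXVIII gene Col28a1 rose in WT mice (1.03 ± 0.31 and 0.70 ± 0.21) and were at 0.23 ± 0.31 and 0.00 ± 0.22 in Dnm2 S619L/+ mice, while Col19a1 and Col25a1 passed in neither.

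Type VI collagen, whose filaments link the basement membrane to the fibres around it and whose mutations cause congenital myopathies, also rose in WT mice. Col6a1 was at 159, 119.9, 97.0 and 116 CPM in WT and 646, 927, 411 and 513 CPM in treated WT mice, a log2 fold change of 2.34 ± 0.37 (edgeR adjusted p = 0.000588), and the groups did not overlap. In Dnm2 S619L/+ mice it was at 219, 197, 138 and 168 CPM untreated and 326, 534, 609 and 142 CPM treated. Treated mouse 4 lay at the low end of the untreated mice, and the log2 fold change of 1.16 ± 0.35 stayed above the threshold (edgeR adjusted p = 0.0565), whereas without that mouse it was 1.44 ± 0.27 (edgeR adjusted p = 0.00212). Of the 5 type VI genes tested, 4 rose in WT mice (15.8% of all tested genes did) and 1, Col6a3, in Dnm2 S619L/+ mice (5.22%). Without treated mouse 4, Col6a1, Col6a2 (1.23 ± 0.27) and Col6a3 (1.46 ± 0.26) were called in Dnm2 S619L/+ mice (edgeR adjusted p = 0.00697 and 0.00141 for the last 2), where 10.2% of all tested genes were called higher. Col6a6, a chain of skeletal muscle that is low here, was lower in treated Dnm2 S619L/+ than in untreated WT mice, at 4.26, 3.19, 2.41 and 3.18 CPM against 6.54, 10.2, 12.2 and 3.19 CPM, a log2 fold change of -1.27 ± 0.45 (edgeR adjusted p = 0.0464) that 10 of 22 other fits called. Without treated mouse 4 it was -1.25 ± 0.51 and not called (edgeR adjusted p = 0.0684).

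The abundant basement membrane chains did not follow the fibrillar genes. Col4a1, which forms the common type IV network with Col4a2, was at 661, 354, 280.3 and 533 CPM in WT and 503, 578, 437 and 429 CPM in treated WT mice, with a log2 fold change of 0.09 ± 0.24 (edgeR adjusted p = 0.812). In Dnm2 S619L/+ mice it was at 389, 282, 491 and 249.9 CPM untreated and 506, 505, 389 and 438 CPM treated (0.38 ± 0.25, edgeR adjusted p = 0.353). The groups overlapped in both genotypes. Col4a2 was at 417, 251, 203 and 402 CPM in WT, 349, 428, 314 and 337 CPM in treated WT, 291, 244, 343 and 196 CPM in Dnm2 S619L/+ and 358, 379, 297 and 307 CPM in treated Dnm2 S619L/+ mice. Its log2 fold changes with tamoxifen were 0.16 ± 0.21 in WT and 0.32 ± 0.21 in Dnm2 S619L/+ mice, with overlapping groups, and intervals of 2 SE on either side of these values leave room for small changes. Col15a1, found at the outer face of the membrane, was likewise not called (-0.08 ± 0.24 and 0.37 ± 0.24), while Col18a1, the source of endostatin, rose in WT mice (1.09 ± 0.30, edgeR adjusted p = 0.0153) and was at 0.73 ± 0.30 in Dnm2 S619L/+ mice, where it was called without treated mouse 4 (0.98 ± 0.24, edgeR adjusted p = 0.0121).

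The rarer type IV chains Col4a3, Col4a4 and Col4a5 differed between untreated WT and Dnm2 S619L/+ mice. In untreated Dnm2 S619L/+ against WT mice, 2 of the 35 tested collagens were called higher and 3 lower, where 12.1% of all tested genes were called higher and 9.81% lower. Col4a3, which joins Col4a4 and Col4a5 in the network best known from kidney glomeruli, was at 3.36, 7.21, 7.75 and 2.90 CPM in WT and 2.54, 1.77, 1.76 and 1.502 CPM in Dnm2 S619L/+ mice. WT mice 2 and 3 were high, WT mice 1 and 4 were nearer to the disease mice, and the groups did not overlap (2.90 CPM the lowest in WT, 2.54 CPM the highest in disease), with a log2 fold change of -1.42 ± 0.35 (edgeR adjusted p = 0.0105). Col4a4 went the same way, from 3.31, 5.01, 5.93 and 2.32 CPM to 2.34, 1.49, 2.17 and 1.54 CPM with a slight overlap (-1.08 ± 0.27, edgeR adjusted p = 0.0108). Treated WT mice had 2.99, 1.44, 1.27 and 1.55 CPM of Col4a3 and 2.55, 2.22, 2.45 and 1.52 CPM of Col4a4, and treated Dnm2 S619L/+ mice 1.23, 1.04, 0.802 and 1.70 CPM and 1.53, 1.12, 1.48 and 1.33 CPM. Both had their highest group mean in untreated WT mice, and against these the treated Dnm2 S619L/+ mice were lower by 2.07 ± 0.36 for Col4a3 and 1.54 ± 0.27 for Col4a4 on the log2 scale (edgeR adjusted p = 0.000954 and 0.00107). The fall in treated WT mice was 1.48 ± 0.35 for Col4a3 (edgeR adjusted p = 0.00625), called in each of 22 other fits, and 0.88 ± 0.27 for Col4a4 (edgeR adjusted p = 0.0225), called in 17 of 22. Neither gene was called in untreated Bin1 mck-/- against WT mice. With only these groups fitted, the log2 fold changes there were -0.37 ± 0.34 for Col4a3 and -0.37 ± 0.24 for Col4a4.

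Col4a5 lies on the X chromosome and is mutated in Alport syndrome. With all mice of a cohort fitted, it alone of the collagens was called higher in both models and lower with tamoxifen in both. Within a cohort, the rise in disease and the fall with tamoxifen share the same untreated disease mice. The 2 calls are therefore not independent. In the Dnm2 cohort Col4a5 was at 3.72, 3.71, 3.56 and 2.52 CPM in WT, 9.80, 6.62, 6.33 and 10.3 CPM in Dnm2 S619L/+, 5.12, 4.82, 3.25 and 5.37 CPM in treated Dnm2 S619L/+ and 3.36, 1.68, 3.11 and 2.62 CPM in treated WT mice. Every untreated Dnm2 S619L/+ mouse lay above every mouse of the other 3 groups. It rose by 1.28 ± 0.24 on the log2 scale in disease (edgeR adjusted p = 0.0016) and fell by 0.83 ± 0.23 with tamoxifen in Dnm2 S619L/+ mice (edgeR adjusted p = 0.0399), or by 0.90 ± 0.26 without treated mouse 4 (edgeR adjusted p = 0.0253), whereas in WT mice its log2 fold change with tamoxifen was -0.32 ± 0.24 (edgeR adjusted p = 0.335), and the 2 effects of tamoxifen differed by -0.51 ± 0.33 (edgeR adjusted p = 0.542). The Bin1 cohort had it at 1.59, 2.54, 2.65 and 1.48 CPM in WT, 4.14, 5.37, 3.86 and 5.08 CPM in Bin1 mck-/- and 1.18, 2.12, 0.970 and 0.986 CPM in treated Bin1 mck-/- mice. The untreated Bin1 mck-/- mice lay above both other groups, with a rise of 1.14 ± 0.29 in disease (edgeR adjusted p = 0.0476) and a fall of 1.75 ± 0.29 with tamoxifen (edgeR adjusted p = 0.00683). Its head-to-head partner Col4a6, tested in the Bin1 cohort only, was not called in disease (0.92 ± 0.52, edgeR adjusted p = 0.342). Col4a6 had 6 to 10 reads in WT and 13 to 20 in Bin1 mck-/- mice, too few to compare firmly. In the Dnm2 cohort it was at 0.566 CPM or less, and untreated Dnm2 S619L/+ mice lay within the WT range. For Col4a5, the disease call in the Dnm2 cohort and the tamoxifen call in the Bin1 cohort held in every other fit, while the tamoxifen call in the Dnm2 cohort held in 12 of 22 and the disease call in the Bin1 cohort in 9 of 17. Without any one of Bin1 mck-/- mice 1, 2 or 4, treated mouse 1 or WT mice 5 to 8 the last call was lost, with edgeR adjusted p up to 0.145.

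The sum of a list of genes of denervated and regenerating fibres was also higher in the untreated mice of both models. The summed level of 8 such genes (Chrna1, Chrng, Chrnd, Musk, Myog, Ncam1, Myh3 and Myh8) was 58.0 to 60.7 CPM in WT, 89.1 to 268 CPM in Dnm2 S619L/+, 125 to 171 CPM in treated Dnm2 S619L/+ and 60.0 to 87.8 CPM in treated WT mice, and 49.3 to 62.5, 69.2 to 203 and 60.5 to 142 CPM in WT, Bin1 mck-/- and treated Bin1 mck-/- mice. Of the 8 genes, 5 rose in Dnm2 S619L/+ and 2 in Bin1 mck-/- mice, where 12.1% and 1.99% of all tested genes did. With tamoxifen 1 rose in Dnm2 S619L/+ and 2 fell in Bin1 mck-/- mice, where 5.22% and 1.61% of all tested genes did. Myh3 and Myh8 were among the genes that overlapped between WT and untreated disease mice, in both cohorts. Myh3 was at 4.64 to 8.66 CPM in WT and 2.94 to 8.04 CPM in Bin1 mck-/- mice. Of the 10 myofiber genes, 1 rose and 2 fell in Dnm2 S619L/+ against WT mice. The part of these cell states in the level of Col4a5 was not tested.

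Outside type IV, Col7a1 and Col17a1 differed in untreated Dnm2 S619L/+ mice. Col7a1, the anchoring fibril gene of skin, was at 12.4, 16.7, 19.9 and 10.5 CPM in WT, 14.3, 14.9, 13.1 and 14.2 CPM in treated WT, 28.3, 24.3, 32.8 and 27.8 CPM in Dnm2 S619L/+ and 31.1, 25.7, 28.9 and 24.8 CPM in treated Dnm2 S619L/+ mice. All 8 Dnm2 S619L/+ mice lay above all 8 WT mice, with a rise of 0.94 ± 0.16 (edgeR adjusted p = 0.000993), and tamoxifen was accompanied by log2 fold changes of -0.06 ± 0.16 and -0.03 ± 0.16. In the Bin1 cohort Col7a1 was at 15.2, 21.8, 21.2 and 20.99 CPM in WT, 20.5, 18.9, 16.2 and 30.9 CPM in Bin1 mck-/- and 29.0, 31.0, 35.8 and 45.8 CPM in treated Bin1 mck-/- mice, so the treated mice were above every WT mouse, with a log2 fold change of 0.84 ± 0.20 that missed the threshold (edgeR adjusted p = 0.0676). Col17a1, a hemidesmosome collagen, was at 0.735 CPM or less in every mouse and fell by 1.13 ± 0.38 (edgeR adjusted p = 0.0419). No fibrillar gene was called in Dnm2 S619L/+ disease, although all 9 had a log2 fold change above 0, with a median of 0.58, and 3 had groups that did not overlap. Of all collagens 10 lay wholly higher and 1 wholly lower, where 14.3% and 10.6% of all tested genes did. DESeq2 called 3 higher and 5 lower (12.7% and 10.4% of its tested genes), and with only the groups compared edgeR called 6 higher and 2 lower (11.0% and 9.16%). Without treated Dnm2 S619L/+ mouse 4, which enters this comparison only through the shared estimate of spread, 7 were called higher and 4 lower (14.0% and 11.2% of all tested genes), with Col1a1 (1.099 ± 0.53 and edgeR adjusted p = 0.149 with the mouse, 0.0302 without it), Col1a2, Col3a1, Col6a2 and Col12a1 among those higher.

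The treated Dnm2 S619L/+ mice set against untreated WT mice gave 19 collagens higher and 4 lower, where 15.8% and 13.1% of all tested genes were called. The groups did not overlap for 15 collagens that were higher and 3 lower (12.7% and 13.4%). Col12a1, Col11a1 and Col8a2 led with log2 fold changes of 7.35 ± 0.97, 6.37 ± 0.99 and 6.002 ± 0.85 (edgeR adjusted p = 0.000231, 0.00053 and 0.00031), and Col1a1, Col1a2, Col3a1 and Col6a1 rose by 3.87, 3.74, 2.96 and 1.71. Col4a1 and Col4a2 were at 0.01 ± 0.24 and 0.07 ± 0.21. Without treated mouse 4, 21 collagens were called higher and 3 lower (19.4% and 15.7% of all tested genes), Col12a1, Col11a1, Col8a2 and Col1a1 were at 7.74 ± 0.74, 6.76 ± 0.81, 6.39 ± 0.59 and 4.23 ± 0.39, and Col22a1 and Col6a5 were added to those higher. This comparison and those of WT treated and disease against WT share their 4 WT mice.

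The response of collagens to tamoxifen was not shown to differ between Dnm2 S619L/+ and WT mice. The difference of the 2 effects was tested as an interaction, and 0 of 35 collagens passed (0.259% of all tested genes did, 0.0324% higher and 0.227% lower). At an unadjusted p under 0.05 there were 13 (13.5% of all tested genes), DESeq2 also called 0 (0.643% of its genes higher, 1.29% lower), and the lowest edgeR adjusted p was 0.224, for Col22a1. The median difference was -0.95 on the log2 scale, and all 9 fibrillar genes were on the side of a smaller effect in Dnm2 S619L/+ mice, for instance by 1.71 ± 0.75 for Col1a1 and 2.57 ± 1.06 for Col12a1. When only the 2 Dnm2 S619L/+ groups were fitted, with mouse 4 inside, no collagen passed for tamoxifen (Col12a1, 5.61 ± 0.94, edgeR adjusted p = 0.0563), where 0.140% of all genes were called higher and 0.0699% lower.

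No fibrillar or type VI gene was called in untreated Bin1 mck-/- against WT mice, although 7 of the 9 fibrillar and 3 of the 5 tested type VI genes had a log2 fold change above 0. Those below 0 included Col11a2 (-1.09 ± 0.37), Col6a5 (-2.67 ± 1.09) and Col6a6 (-0.42 ± 0.53). Of 34 collagens tested, 1 (Col4a5) was called higher and 0 lower, where 1.99% of all tested genes were called higher and 0.627% lower, with 8 collagens at an unadjusted p under 0.05 (20.2% of all tested genes). The groups of untreated Bin1 mck-/- and WT mice did not overlap for 15 collagens that were higher and 2 that were lower, where 9.09% and 7.47% of all tested genes did not overlap. The median log2 fold change was 0.73 over the 34 collagens and 1.19 over the fibrillar ones, beside 0.01 over all genes. Col1a1 was at 359, 386, 242 and 278 CPM in WT mice 5 to 8 and 423, 639, 387 and 1428 CPM in Bin1 mck-/- mice 1 to 4, with mouse 4 high and mouse 3 next to the WT range (1.19 ± 0.88, edgeR adjusted p = 0.501). Col1a2 was at 352, 385, 245 and 273 CPM in WT and 468, 724, 439 and 1381 CPM in Bin1 mck-/- mice (1.26 ± 0.88). Col3a1 was at 424, 312, 372 and 285 CPM in WT and 815, 1611, 913 and 2120.1 CPM in Bin1 mck-/- mice (1.97 ± 0.77, edgeR adjusted p = 0.193), so every Bin1 mck-/- mouse had more than the highest WT mouse.

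Col6a1 was at 122, 113, 136 and 108 CPM in WT and 176, 264, 185 and 387 CPM in Bin1 mck-/- mice, without overlap (1.08 ± 0.50, edgeR adjusted p = 0.257). Col8a1, picked here after its values were seen, was at 7.46, 4.21, 2.75 and 5.06 CPM in WT and 30.4, 56.6, 23.9 and 126 CPM in Bin1 mck-/- mice (3.58 ± 1.17, edgeR adjusted p = 0.131). When only these 2 groups were fitted, so that the wide spread of the treated mice did not enter, 11 collagens passed as higher and 1, Col11a2, as lower, where 6.41% and 3.74% of all tested genes did. Those higher were Col3a1 (1.97 ± 0.32, edgeR adjusted p = 0.00913), Col5a1, Col5a2, Col5a3, Col6a1, Col6a2, Col6a3, Col14a1, Col18a1, Col8a1 and Col4a5, and Col1a1 was not among them (adjusted p = 0.156). DESeq2 called 4 higher and 1 lower (4.63% and 2.36% of its tested genes). Bin1 mck-/- mouse 4 had the highest level of the untreated mice in Col1a1, Col1a2, Col3a1, Col4a1, Col4a2 and Col6a1 and also in tendon genes, with 914 CPM of Thbs4, a tendon matrix gene, against 68.7 to 234 CPM in mice 1 to 3. Without it, 0 collagens passed (0.385% of all tested genes did) and Col3a1 was at 1.67 ± 0.83.

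Col4a1 and Col4a2 showed no such shift in Bin1 mck-/- mice. Col4a1 was at 643, 426, 441.4 and 406 CPM in WT, 370.4, 531, 519.6 and 715 CPM in Bin1 mck-/- and 461, 316, 286 and 115 CPM in treated Bin1 mck-/- mice. Col4a2 was at 449.98, 308, 343 and 310.4, 278, 341, 346 and 531 and 348, 257, 230.5 and 126 CPM in the same groups. The disease and WT groups overlapped for both (0.16 ± 0.34 and 0.08 ± 0.27), and the treated mice lay mostly lower, mouse 4 lowest (-0.86 ± 0.35 and -0.64 ± 0.27, edgeR adjusted p = 0.187 and 0.208).

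With all treated Bin1 mck-/- mice in the fit, the fibrillar genes had no common direction. Col1a1 was at 469, 2426, 405 and 71.7 CPM in treated mice 1 to 4, Col1a2 at 497, 2946, 396 and 89.1 CPM, Col3a1 at 884, 2801, 417 and 136 CPM and Col6a1 at 160.02, 293, 98.9 and 41.4 CPM. Mouse 2 was above every other Bin1 mck-/- mouse in Col1a1, Col1a2 and Col3a1, mouse 4 was below every mouse of the cohort in all 4 genes, and mice 1 and 3 lay between. Col12a1 was at 10.2, 13.2, 5.22 and 41.4 CPM untreated and 8.14, 597, 9.35 and 1.53 CPM treated, Col11a1 at 0.887, 0.450, 0.285 and 8.76 and 1.18, 135, 4.77 and 0.548 CPM, and Col8a2 at 3.02, 3.63, 0.917 and 16.5 and 1.002, 49.1, 0.853 and 0 CPM. In all 3 genes mouse 2 alone was high. Of 34 collagens tested, 0 were called higher and 1 (Col4a5) lower with tamoxifen, where 1.52% and 1.61% of all tested genes were called, with 11 collagens at an unadjusted p under 0.05 (20.7% of all tested genes) and 3 higher and 3 lower by DESeq2 (3.39% and 3.38% of its genes). The groups did not overlap for 0 collagens that were higher and 3 that were lower (4.66% and 5.13%). The sign for Col1a1 rested on mouse 2: its log2 fold change was 0.23 ± 0.86 with it and -1.19 ± 0.67 without it, and neither passed the test. In the fit without mouse 2, every fibrillar gene but Col11a2 had a log2 fold change below 0. These ran from -1.81 for Col5a2 to -0.27 for Col11a1, and none of them was called. Without mouse 2, 5 collagens were called, of which Col8a1 (-3.92 ± 0.81), Col16a1 (-1.58 ± 0.42) and Col4a5 (-2.08 ± 0.28) were lower and Col7a1 (0.77 ± 0.21) and Col11a2 (1.43 ± 0.36) higher, where 4.39% of all tested genes were called lower and 3.91% higher. Without mouse 1, 6 were called (3.95% of all tested genes in either direction). Against WT mice, treated Bin1 mck-/- mice gave 0 called collagens (0.849% of all tested genes, 0.465% higher and 0.384% lower), 7 at an unadjusted p under 0.05 (14.9%) and 2 higher and 1 lower by DESeq2 (1.70% and 1.43% of its genes). These groups did not overlap for 1 collagen that was higher, Col7a1, and 2 that were lower, Col4a4 and Col20a1 (3.68% and 4.29% of all tested genes), and with only the groups compared 1 was called higher (0.494% and 0.353%).

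**Figure D3:**
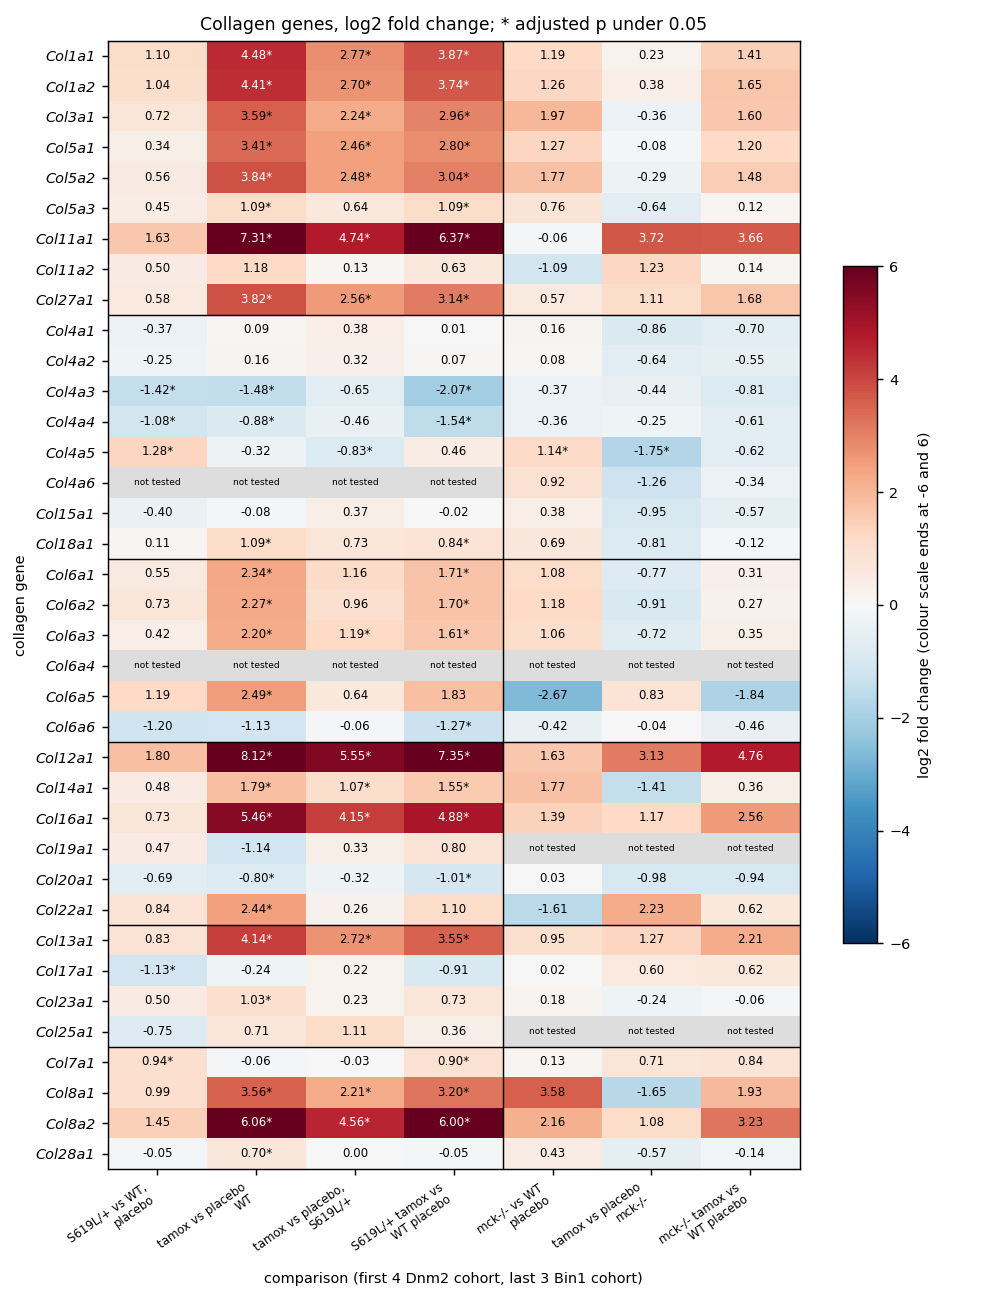
Rows are the 37 collagen genes grouped as fibrillar, basement membrane, type VI, fibril-associated, transmembrane and others, columns are the 4 comparisons of the Dnm2 cohort and the 3 of the Bin1 cohort, and each cell gives the log2 fold change (red above 0, blue below, colour scale ending at 6 on either side of 0), with an asterisk where the adjusted p was under 0.05 and grey where the gene was too low to be tested. The fibrillar block is red in the tamoxifen column of both Dnm2 cohort genotypes. Col4a1 and Col4a2 stay between -0.37 and 0.38 over the 4 columns of the Dnm2 cohort, and in the Bin1 cohort the asterisks sit on Col4a5.

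Genes that fold, cross-link and bind collagen moved with the fibrillar group in the Dnm2 cohort. Of 22 genes for the modification and secretion of collagen chains inside the cell, 15 rose and 0 fell in treated WT mice (median log2 fold change 1.26), and 7 rose in treated Dnm2 S619L/+ mice (0.50). Among the leading genes were the prolyl hydroxylase P4ha3 at 6.46 ± 0.87 in WT and 3.72 ± 0.74 in Dnm2 S619L/+ mice and the coat protein gene Sec24d, needed to export procollagen, at 2.02 ± 0.27 and 1.24 ± 0.26. Of 13 tested genes for processing and cross-linking outside the cell, 12 rose in WT (1.97) and 7 in Dnm2 S619L/+ mice (1.28), led by the cross-linking oxidase Lox at 4.44 ± 0.55 and 2.64 ± 0.51. Of 8 collagen receptors, 6 rose and 1 fell in WT mice (1.66) and 2 rose in Dnm2 S619L/+ mice (0.48), led by the integrin Itga11 at 3.92 ± 0.60 and 3.69 ± 0.61 and the uptake receptor Mrc2 at 2.36 ± 0.39 and 1.38 ± 0.37.

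In untreated Dnm2 S619L/+ mice 1 modifying gene rose and 3 fell, with P4ha1 at 0.57 ± 0.15 and Mia3, a cargo receptor for procollagen, at -0.57 ± 0.14. The procollagen protease enhancer Pcolce was the only processing gene called (0.996 ± 0.30). Among receptors Itgb1 rose (0.51 ± 0.12) and Itga1, the integrin chain that favours type IV collagen, fell by 0.97 ± 0.19. In Bin1 mck-/- mice Pcolce2 was the only gene of the 3 lists that was called, with a rise of 1.23 ± 0.29 in disease, and it fell by 1.57 ± 0.29 with tamoxifen (edgeR adjusted p = 0.0361 and 0.0115). P4ha1 and P4ha2 fell by 0.84 ± 0.20 and 0.57 ± 0.13 with tamoxifen.

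Markers of bone cells were high in the treated mice with high fibrillar levels, and not in the untreated mice. The summed level of 10 osteoblast and osteocyte genes was 43.2, 30.2, 31.0 and 57.6 CPM in WT, 705, 933, 299 and 371 CPM in treated WT, 16.3, 12.1, 19.3 and 14.6 CPM in Dnm2 S619L/+ and 185, 415, 539 and 48.1 CPM in treated Dnm2 S619L/+ mice. Next to treated mice 1 to 3, treated Dnm2 S619L/+ mouse 4 was low in both. Its bone sum still lay above that of every untreated mouse of its genotype. Its Ibsp was at 2.41 CPM, against 0.633 CPM or less in those untreated mice. Of 8 bone genes tested, 7 rose in treated WT and 7 in treated Dnm2 S619L/+ mice, with medians of 4.31 and 4.07. In the Bin1 cohort the sum was 24.7, 297, 18.6 and 19.8 CPM in treated Bin1 mck-/- mice 1 to 4, again with mouse 2 alone high, and 38.2 to 46.9 CPM in WT and 25.7 to 38.7 CPM in untreated Bin1 mck-/- mice. Of this list, Mepe and Sost, which mark mature osteocytes, stayed at 0.480 CPM or less in every mouse. In the Dnm2 cohort every untreated Dnm2 S619L/+ mouse had a lower bone sum than every untreated WT mouse. In these untreated mice the sum was mostly Alpl, so it says little about the other bone genes. Alpl was at 41.0, 28.4, 29.2 and 55.5 CPM in WT and 13.6, 8.83, 17.2 and 12.4 CPM in Dnm2 S619L/+ mice 1 to 4. It was the 1 of 8 tested genes called, and fell by 1.56 ± 0.41 (edgeR adjusted p = 0.015). Fibrillar genes held 0.207 to 0.253% of all gene counts in untreated Dnm2 S619L/+ mice against 0.0699 to 0.132% in WT mice. Untreated Bin1 mck-/- mouse 4 had the highest fibrillar share of the untreated mice (0.643%). It also had the lowest bone sum of its group, 25.7 CPM, of which Alpl was 23.7 CPM.

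Tendon genes (6) summed to 47.4 to 259 CPM in WT, 717 to 1661 CPM in treated WT, 263 to 512 CPM in Dnm2 S619L/+ and 117 to 813 CPM in treated Dnm2 S619L/+ mice, and 3 of 6 rose in Dnm2 S619L/+ disease and 5 of 6 in treated WT mice. Cartilage genes (10) summed to 5.55 to 15.6 CPM in WT and 51.2 to 109.7 CPM in treated WT mice, and 4 of 8 tested rose. Untreated Dnm2 S619L/+ mice had 8.78 to 24.1 CPM, with 2 of 8 called, the cartilage regulator Sox9 (1.87 ± 0.25) and Col10a1 (1.89 ± 0.48), both higher, and treated Dnm2 S619L/+ mice 1 to 4 had 49.6, 95.1, 78.1 and 8.73 CPM, with 3 of 8 called higher. Col10a1 was at 0.277 CPM or less in every untreated mouse of this cohort, too low to compare firmly. In Bin1 mck-/- disease Sox9 was the one of 6 tested that rose (1.94 ± 0.37, edgeR adjusted p = 0.0174). Tendon genes of the Bin1 cohort summed to 94.0 to 225 CPM in WT, 232, 257, 105 and 1046 CPM in Bin1 mck-/- and 57.1, 439, 271 and 46.5 CPM in treated Bin1 mck-/- mice, with cartilage sums of 5.88 to 9.16, 7.69, 9.17, 7.09 and 43.2 and 6.45, 42.9, 15.9 and 10.5 CPM. Macrophage and leukocyte genes rose in 7 of 8 cases in treated WT, 5 of 8 in Dnm2 S619L/+ and 4 of 8 in Bin1 mck-/- mice, and fibroblast genes in 3, 2 and 1 of 9. The 9 fibroblast genes summed to 843 to 966 CPM in WT, 1551 to 2056 CPM in Bin1 mck-/- and 1432, 1366, 676 and 394 CPM in treated Bin1 mck-/- mice 1 to 4, so that every untreated Bin1 mck-/- mouse lay above both other groups. With tamoxifen 2 of the 9 fell in these mice, Cd34 by 0.70 ± 0.18 and Dpp4 by 1.25 ± 0.32 (edgeR adjusted p = 0.0454 and 0.0487), and Dpp4 was the one that rose in Bin1 mck-/- disease (1.26 ± 0.32). In the Dnm2 cohort the fibroblast sum was 1037 to 1373 CPM in WT, 1936 to 2433 CPM in treated WT, 1278 to 2431 CPM in Dnm2 S619L/+ and 1404 to 2465 CPM in treated Dnm2 S619L/+ mice. The median log2 fold change of the 9 was only 0.08 in treated WT mice. Lum (36.5 to 43.2 CPM in WT, 473 to 790 CPM treated) and Dcn (238 to 327 and 538 to 752 CPM) made up most of that rise. Pdgfra was also higher without overlap, Dpp4 was lower without overlap, and Dpt, Ly6a, Pi16, Cd34 and Gsn overlapped. In Dnm2 S619L/+ disease endothelial genes fell in 5 of 8 cases, pericyte and smooth muscle genes fell in 4 of 7 and rose in 1 of 7, and Schwann cell genes were called in 0 of 6. In treated WT mice endothelial genes were called in 0 of 8. The part of these other cell types was not tested either.

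**Figure D4:**
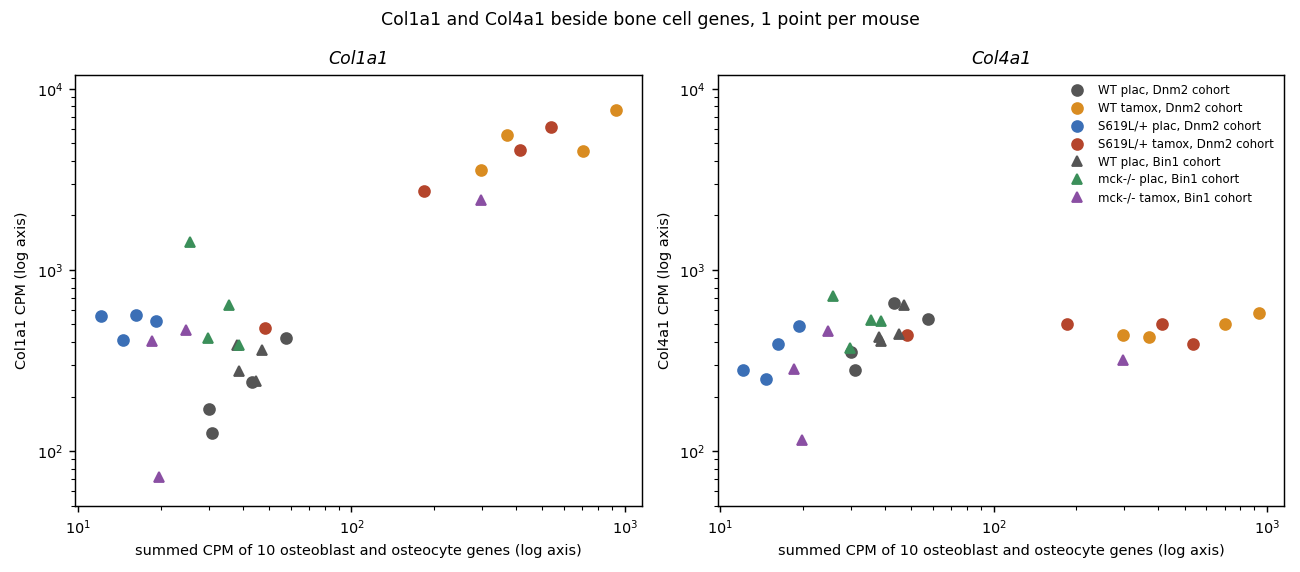
Each point is 1 of the 28 mice (circles Dnm2 cohort, triangles Bin1 cohort, colours by group), with the summed CPM of 10 osteoblast and osteocyte genes on the horizontal log axis and the CPM of Col1a1 (left) or Col4a1 (right) on the vertical log axis. The 8 mice with a bone gene sum of 185 CPM or more, all of them treated, have 2426 to 7666 CPM of Col1a1, while their Col4a1 lies among that of the other mice.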

How the data were processed

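Whole-transcriptome RNA of 28 TA muscles was sequenced from stranded poly(A) TruSeq libraries. The authors deposited raw read counts per Ensembl gene, 1 table per cohort, and the submitters' processing notes list cutadapt 1.10, Bowtie 1.2.2, STAR 2.5.3, HTSeq 0.6.1p1 and mm39. The annotation release is not given in the sources used here. RNA input was 300 ng with 2 min of fragmentation in the Dnm2 cohort and 350 ng with 8 min in the Bin1 cohort. Lines that name no gene held 22.0 to 30.8% of the Bin1 cohort's table and were left out. Median depth was 28832003 and 30657896 counts per mouse.

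Names and exon lengths came from a GRCm38 annotation matched by Ensembl identifier. Each cohort was fitted with edgeR 4.0.16 (R 4.3.3, TMM, filterByExpr, robust quasi-likelihood, prior count 2, Benjamini-Hochberg adjustment over all tested genes) without a replicate block, and the fitting was tested on simulated data. Alternatives were DESeq2 1.42.0, RLE size factors, a filter of more than 10 reads in 90% of mice, no filter, fits of only the groups compared, a replicate block and leaving out each mouse. The values per mouse are for 6 reference collagens (Col1a1, Col1a2, Col3a1, Col4a1, Col4a2 and Col6a1) and, for each comparison, the called collagens that moved farthest (at most 3 in either direction) among those with a mean log2 CPM above 0. Lists are given by counts of called genes, summed levels or both, and only some also by medians or leading genes. The members and lists were chosen with earlier results of these data known. The labels call the samples of a group separate mice.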

Additional observations from a re-analysis of the deposited data

Results flagged for a closer look

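In 11 cases the highest or lowest mouse of a group of 4 lay far from the other 3, by Dixon's test at 95%. Such a gap arises by chance in about 1 in 20 groups, and 105 groups were tested. Treated Bin1 mck-/- mouse 2 accounted for 5 of them, with 2426 CPM of Col1a1 (71.7 to 469 in the other 3), 2946 CPM of Col1a2 (89.1 to 497), 135 CPM of Col11a1 (0.548 to 4.77), 597 CPM of Col12a1 (1.53 to 9.35) and 49.1 CPM of Col8a2 (0 to 1.002). The same mouse had 186 CPM of the bone matrix gene Ibsp, where the other 3 had 0 to 0.0871 CPM, and the part of bone cells in its collagen levels was not tested. Untreated Bin1 mck-/- mouse 4 had 8.76 CPM of Col11a1 (0.285 to 0.887 in the others) and mouse 2 had 2.93 CPM of Col4a3 (1.22 to 1.46). WT mouse 5 of the Bin1 cohort was high in Col4a1 at 643 CPM (406 to 441.4) and low in Col7a1 at 15.2 CPM (20.99 to 21.8). In the Dnm2 cohort, treated WT mouse 1 had 2.99 CPM of Col4a3 (1.27 to 1.55) and WT mouse 4 had 2.52 CPM of Col4a5 (3.56 to 3.72).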

How the results depend on the processing

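The count of collagens called moved with the groups in the fit, the tool and the mice included. In Dnm2 S619L/+ disease it was 5, against 8 by DESeq2, 8 with only the groups compared and 4 to 11 with 1 mouse left out (11 without treated Dnm2 S619L/+ mouse 4). For tamoxifen in Dnm2 S619L/+ mice it was 15, against 0 with only the groups compared and 12 to 18 with 1 mouse left out. Leaving out 1 mouse gave 19 to 26 for tamoxifen in WT mice, 20 to 24 for treated Dnm2 S619L/+ against WT mice and 0 throughout for the interaction. In Bin1 mck-/- disease it was 1, against 5 by DESeq2, 12 with only the groups compared and 0 to 3 with 1 mouse left out: 3 without treated mouse 2 or 4, 2 without treated mouse 3 and 0 without untreated mouse 1, 2 or 4 or any WT mouse. For tamoxifen in Bin1 mck-/- mice it was 1, against 6 by DESeq2, 2 without a filter on low counts and 1 to 6 with 1 mouse left out (6 and 5 without treated mouse 1 or 2, 2 without untreated mouse 1 or 4). For treated Bin1 mck-/- against WT mice it was 0, against 3 by DESeq2, 1 without a filter, 1 with only the groups compared and 0 to 1 with 1 mouse left out (1 without untreated mouse 3 or 4 or treated mouse 1). Of single log2 fold changes, 378 kept direction and side of the threshold under the other alternatives, 10 were no longer called, 5 became called and 2 reversed, and with 1 mouse left out the numbers were 983, 37, 4 and 16. The log2 fold changes that changed sign with 1 mouse left out were not called with all mice. They ranged from -0.0790 to 0.32 for Col4a1 with tamoxifen in WT mice, from -0.160 to 0.24 for Col4a1 and -0.0820 to 0.23 for Col4a2 in treated Dnm2 S619L/+ against WT mice, from -0.0242 to 0.32 for Col4a1 and -0.141 to 0.22 for Col4a2 in Bin1 mck-/- disease, from -1.19 to 0.80 for Col1a1, -1.20 to 0.85 for Col1a2 and -1.51 to 0.00313 for Col3a1 with tamoxifen in Bin1 mck-/- mice, and from -0.0144 to 1.80 for Col1a1 and -0.268 to 0.62 for Col6a1 in treated Bin1 mck-/- against WT mice. Apart from what the fewer mice or groups in a fit imply, the cause was not tested. With 4 mice a group, genes under about 1 CPM could not be compared firmly.

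The mouse numbers did not pair the groups: deviations of same-numbered mice correlated between -0.325 and 0.335 over 24 pairs of the Dnm2 cohort and between -0.175 and 0.149 over 4 pairs of the Bin1 cohort. With a replicate block the counts were 7, 26, 14, 0 and 22 for disease, tamoxifen in WT, tamoxifen in Dnm2 S619L/+, interaction and treated against WT, and 1 for tamoxifen in Bin1 mck-/- mice. The block turned Col1a1 to -0.25 and Col1a2 to -0.30 in the last. No paired analysis was possible because the WT mice of the Bin1 cohort carry numbers 5 to 8, for the comparisons with them.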
